A study of Zea mays with 9 samples.

Results

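The least accessible genes of maize root nuclei were taken here to be those with the lowest ATAC-seq coverage in the deposited table, 2256 of 38703 gene identifiers (5.83%). Each library was scaled to the same total, and a gene was taken as a low-coverage gene when its mean over the 9 libraries was under 200. All 9 libraries chose the genes, so a low mean is how they were picked and not a finding. The rule used the mean over all times, not a difference between times. Roots came from seedlings of the inbred line B73, grown for 2 days at 30 °C and 7 days at 23 °C and then given tunicamycin in DMSO, with a label of 5 mg per ml that does not tell a stock from a working strength. The design has 3 libraries for each of 0 h, 6 h and 12 h, described as biological replicates. Every library carries the tunicamycin label, the 0 h ones included, and no untreated 6 h or 12 h library was analysed here. One label calls the material protoplasts, while the other labels and the extraction protocol name root. How many plants went into a library was not found in the labels, and fewer open nuclei and less open DNA per nucleus cannot be told apart in bulk nuclei.

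In ATAC-seq a transposase inserts adapters into DNA that is free of tightly packed nucleosomes, so reads gather at open promoters and enhancers and are few in closed chromatin. Most of the maize genome consists of transposable elements kept in closed, methylated chromatin, with open sites near genes. Tunicamycin blocks N-linked glycosylation, so that misfolded proteins build up in the endoplasmic reticulum. Plants answer this stress through the sensor IRE1, which splices the mRNA of the transcription factor bZIP60, and through membrane-bound bZIP factors such as bZIP28. The series follows persistent stress of this kind over time, and the comparisons below set the later times against 0 h and against each other in the genes of lowest coverage. None of the identifiers occurred in the RefSeq table used here, whose assembly is Zm-B73-REFERENCE-NAM-5.0, so genes are given by identifier and no name, function or sequence is attached to them. For the same reason the root label could not be checked against marker genes.

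Low values often sat on multiples of 73, which was taken as the coverage of 1 read, so that values are called read bases here. On that reading the cutoff of 200 is 2.74 reads per library, the median low-coverage gene had a mean of 118 (1.62 reads), and the median of all genes was 803 (11.0 reads). The labels do not describe the window counted around each gene, so coverage is not per length. The part of window length in the low values was not tested. The quartiles of the low-coverage genes were 58.3 and 166, and 698 of them (30.9%) averaged less than 1 read. The lowest mean was 0.748, in Zm00001d040815 and Zm00001d049944, each with 7 read bases in 12 h replicate 2 and 0 in the other libraries. Just inside the cutoff was Zm00001d025658 at 199.9, and just outside it Zm00001d050448 at 200.01. No gap separated the groups, with 198 genes in the 10 read bases below the cutoff and 166 in the 10 above it.

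Single values of low-coverage genes came in steps. Over the 9 libraries, 24.7% of their values were 0, 20.03% were exactly 73, 12.5% were 2 times 73 and 7.02% were 3 times 73. In the other genes 0.132% of values were 0. Exact multiples of 73 made up between 56.2% and 60.3% of the values above 0 in low-coverage genes, depending on the library, against 16.6% to 22.6% over all genes. The highest value of any low-coverage gene in any library was 657, or 9 reads, at 6 h. A total of 58 genes never reached 73 in any library, so that by this reading no whole read fell in their window.

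None of the low-coverage genes was at 0 throughout, and 642 (28.5%) were covered in all 9 libraries. Another 529 were at 0 in 1 library and 328 in 2. At the other end, 104 were covered in 1 library alone, 65 of them at exactly 73. That library was a 0 h one for 31 genes, a 6 h one for 34 and a 12 h one for 39. A gene at 0 in all 9 libraries would have fallen under the cutoff, so none was among the listed identifiers. Whether such genes were left out of the list was not tested, so genes with less coverage than these may exist.

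Zeros were most frequent in the libraries with the lowest totals. Low-coverage genes at 0 numbered 503, 561 and 551 in replicates 1, 2 and 3 at 0 h, 632, 554 and 644 at 6 h, and 509, 521 and 530 at 12 h. The totals of the same libraries were 39.1, 35.0 and 38.1 megabases at 0 h, 31.1, 33.1 and 28.9 at 6 h, and 36.8, 36.3 and 35.8 at 12 h. The 6 h libraries with 632 and 644 zeros had the lowest totals of all, and the 0 h library with 503 zeros the highest. The order was not strict, since 0 h replicate 3 had more zeros than every 12 h library at a higher total. As a share of the low-coverage genes, zeros averaged 23.9% ± 1.37 for 0 h, 27.0% ± 2.17 for 6 h and 23.0% ± 0.467 for 12 h (mean ± SD of 3 libraries each). The 12 h and 0 h libraries overlapped, and so did the 6 h and 0 h ones. Within a single library the 95% Wilson interval of the share was, for example, 26.7% to 30.4% in 6 h replicate 3 and 20.6% to 24.1% in 0 h replicate 1, and it covers counting error only. Low-coverage genes made up between 88.8% and 94.7% of all genes at 0 in a library.

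**Figure D1:**
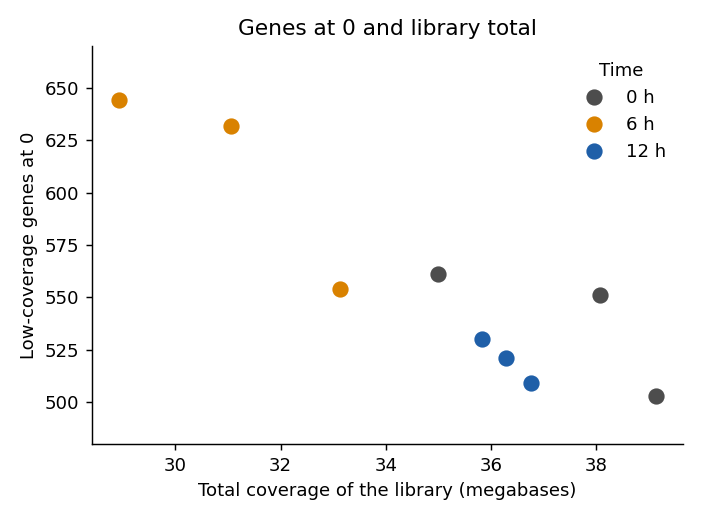
Number of low-coverage genes at 0 (y axis, starting above 0) against the total coverage of the library in megabases (x axis). Each point is 1 library, coloured by time, and the 6 h libraries with totals of 28.9 and 31.1 megabases lie highest, at 644 and 632 genes.

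Few genes were covered in every library of one time and at 0 in every library of another, in either direction. At 0 in all 3 libraries were 157 genes at 0 h, 176 at 6 h and 134 at 12 h. Against these, 10 genes were covered in all 3 libraries at 12 h and at 0 in all 3 at 0 h, while 14 were at 0 in all 3 at 12 h and covered in all 3 at 0 h. For 6 h against 0 h, 5 genes were covered in all 3 at 6 h and at 0 in all 3 at 0 h, and 15 the other way round. For 12 h against 6 h, 14 genes were covered in all 3 at 12 h and at 0 in all 3 at 6 h, and 8 the other way round. Each of these counts was the same over all genes, so no gene above the cutoff showed such a pattern. The totals at 6 h were the lowest of the series, and their part in the differences from 6 h was not tested.

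The low-coverage genes together took a larger share of coverage at 12 h than at 0 h, and at 6 h the libraries overlapped with 0 h. Their share was 0.707%, 0.678% and 0.653% at 0 h, 0.6996%, 0.775% and 0.755% at 6 h, and 0.723%, 0.736% and 0.739% at 12 h. Each 12 h library lay above each 0 h library. Replicate 1 at 6 h lay below replicate 1 at 0 h, and the other 6 h libraries lay above every 0 h and 12 h library. The means were 0.679% ± 0.0273 for 0 h, 0.743% ± 0.0392 for 6 h and 0.733% ± 0.00833 for 12 h (± SD of 3 libraries). Relative to 0 h, the share was higher by 9.41% at 6 h and by 7.87% at 12 h. In the 1507 genes with a mean under 150 these values were 6.01% and 4.75%. Between 12 h and 6 h the difference was -1.41%, smaller than the spread at 6 h. No p is given for this sum, since the genes were picked from these libraries. Without scaling, the low-coverage genes of the 3 libraries of a time summed to 797720 read bases at 12 h, against 762559 at 0 h, although the 12 h totals averaged 36.3 megabases and the 0 h totals 37.4. At 6 h the unscaled sum was 692459 read bases, with totals averaging 31.0 megabases.

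**Figure D2:**
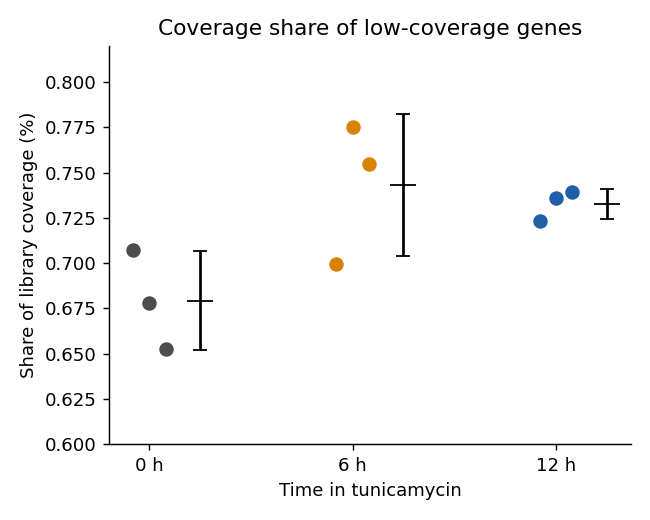
Share of each library's coverage that lies in the low-coverage genes, in percent (y axis, starting above 0), at 0 h, 6 h and 12 h. Points are libraries, and the bar beside them is the mean with its SD (n = 3); all 12 h points lie above all 0 h points, and 1 of the 6 h points, at 0.6996%, lies among the 0 h ones.

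The means kept the same order when genes were scored in libraries that had no part in choosing them. Genes were chosen again from the 6 libraries of a pair of replicate numbers and scored in the 3 libraries of the number left out. Between 2279 and 2316 genes had a mean under 200 in the 6 libraries, and between 77.9% and 79.4% of them were again under 200 in the 3 left out, 99.4% to 99.5% under 400. Their share in the libraries left out averaged 0.791% ± 0.0246 for 0 h, 0.872% ± 0.0503 for 6 h and 0.854% ± 0.0135 for 12 h (± SD of 3 libraries). In this scoring the lowest 6 h share was 0.817% and the highest 0 h share 0.815%, so these libraries did not overlap, by a margin far smaller than either SD. For replicate number 1 the order differed, with 0.839% at 12 h above 0.817% at 6 h. Each number was scored on its own set of genes. Of these sets, 2067 of 2279, 2105 of 2316 and 2090 of 2303 genes were also among the low-coverage genes above. The scoring is therefore not independent of the shares given before.

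The gain lay mainly in the better-covered low-coverage genes. The 749 genes with a mean of 150 to 200 held 52.9% of the coverage of the low-coverage genes and 71.0% of their net gain at 12 h against 0 h. At 6 h against 0 h they held 69.3% of it. Their share averaged 0.353% ± 0.00926 for 0 h, 0.397% ± 0.0256 for 6 h and 0.391% ± 0.00511 for 12 h (± SD of 3 libraries), and neither later time overlapped with 0 h. The 566 genes with a mean of 100 to 150 had shares higher than at 0 h by 7.02% at 6 h and 7.403% at 12 h, with 21.4% and 27.0% of the net gain. In the 467 genes with a mean of 50 to 100 the share differed from 0 h by 5.48% at 6 h and by -2.37% at 12 h, and in the 474 genes under 50 by 1.63% and 10.3%, and in each of these 3 bands the libraries overlapped with 0 h.

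Genes above the cutoff showed a difference of the same kind, so the gain was not shown to be particular to the low-coverage genes. The 1885 genes with a mean of 200 to 300 took a share higher than at 0 h by 9.51% at 6 h and by 10.5% at 12 h. From there the difference became smaller with each band of higher coverage, was -0.37% and -0.79% at a mean of 1000 to 1500, and was -5.24% and -4.52% in the 1707 genes at 2000 or more. The shares of a library add to 100%, so the bands are not independent of each other. No batch or date is given in the labels, so a batch effect in step with time cannot be told apart from time.

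**Figure D3:**
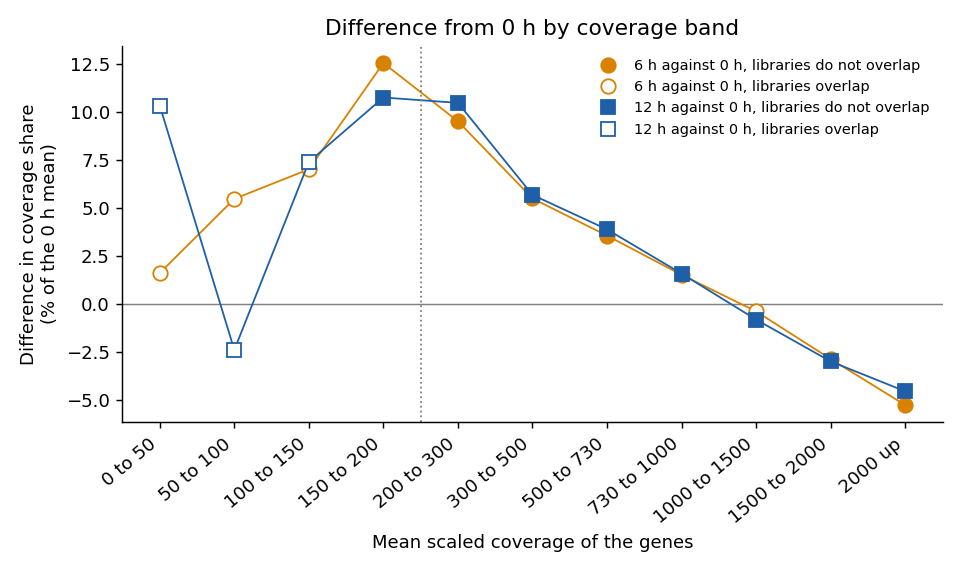
Difference of the coverage share from 0 h, in percent of the 0 h mean (y axis), for bands of genes by mean scaled coverage (x axis, low to high), with low-coverage genes left of the dotted line. Filled symbols mark bands in which the 3 later libraries did not overlap with the 3 at 0 h, and open symbols those that overlapped; values go from 12.5% (6 h) and 10.8% (12 h) at 150 to 200 to -5.24% and -4.52% at 2000 or more.

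Gene by gene, the gain was the small excess of many positive over many negative differences. At 12 h against 0 h, 1252 low-coverage genes (55.5%) had a higher mean, 966 a lower one and 38 the same, where 51.7% of all genes had a higher mean and 48.2% a lower one. At 6 h against 0 h, 1184 (52.5%) were higher and 1019 lower, against 51.5% and 48.4% of all genes. The median difference was 4.95 read bases at 12 h and 4.70 at 6 h, a small part of the 73 of 1 read. Over all genes, whose coverage was higher, it was 6.83 and 6.41. Leaving out each library in turn, the share of higher genes ran from 50.7% to 55.9% at 12 h against 0 h, lowest without 12 h replicate 1, and from 49.4% to 54.2% at 6 h against 0 h, lowest without 6 h replicate 2. Between 12 h and 6 h, 1091 were higher and 1127 lower, against 50.1% and 49.8% of all genes. A read in a shallow library counts for more after scaling, so equal reads give a higher scaled value there. By unscaled sums, 906 low-coverage genes were higher and 1192 lower at 6 h against 0 h, the reverse of the scaled direction. For 12 h against 0 h, 1130 were higher and 972 lower, and for 12 h against 6 h 1238 and 863. Of 154 genes with equal unscaled sums at 12 h and 0 h, 93 were higher at 12 h once scaled, and at 6 h against 0 h this was so for 105 of 158. With equal sums the scaled direction follows by arithmetic from the totals of the libraries that hold the reads. Genes at 0 at both times are among the 154 and the 158 and cannot differ.

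The positive differences were spread over many genes. At 12 h against 0 h the positive differences summed to 923 reads and the net difference to 256 reads per library. The 10 largest held 3.29% of the positive sum and the 100 largest 24.96%, and 262 genes made up 50% of it. With the 10 largest and the 10 smallest differences left out, the net difference was 18443 read bases, against 18656 with all genes, and it was 15457 without 100 at each end. At 6 h against 0 h the net difference was 306 reads, the 10 largest held 3.51% of the positive sum, and without 100 at each end 19042 of 22305 read bases were left. With only the 100 largest left out, the net difference was 1835 read bases at 12 h and 4579 at 6 h, by construction lower. The largest single difference was 273 read bases at 12 h and 295 at 6 h, each about the coverage of 4 reads. The cutoff on the mean limits how large a single difference can be, so the spread over many genes follows in part from the rule. It was similar for 12 h against 6 h, where the net difference was -3648 read bases. There the 10 largest held 3.88% of the positive sum and the 100 largest 26.3%, and 244 genes made up 50% of it.

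**Figure D4:**
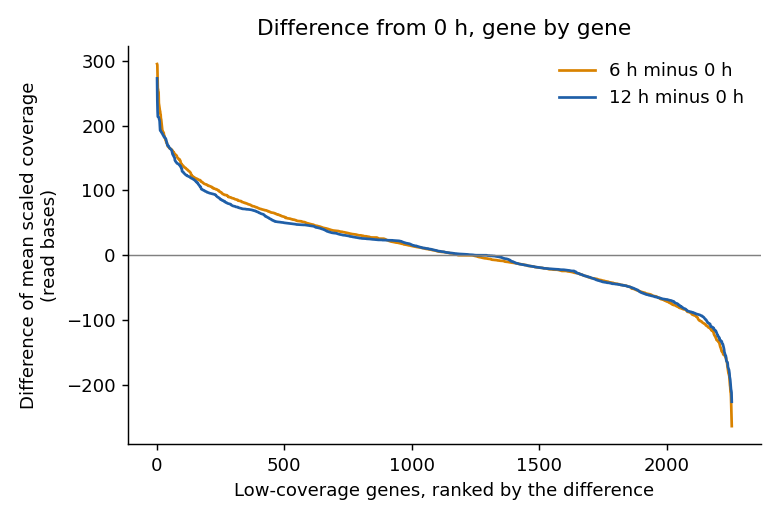
Difference of mean scaled coverage from 0 h in read bases (y axis) for each low-coverage gene, ranked from the largest to the smallest (x axis), for 6 h and for 12 h. Both curves run on smoothly from their largest values, 295 and 273, through 0 to negative values, with no step that sets a few genes apart.

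The gain was also found across the identifier numbers. The table lists its identifiers in 10 long stretches of mostly ascending numbers, after 298 identifiers numbered below 1000 in no order. The low-coverage genes of all 10 stretches had more coverage at 12 h than at 0 h, by 3.91% to 15.0%, and at 6 h than at 0 h, by 4.26% to 19.4%. For 12 h against 6 h, 4 of the 10 stretches were higher, and the differences ran from -8.05% to 4.73%. Cut by mean coverage into 10 parts instead, the same genes were less even. At 12 h against 0 h 9 of these parts had more coverage, with differences from -5.91% to 24.6%. At 6 h against 0 h 7 of them did, with differences from -19.6% to 17.4%. The stretches and the parts share the same 9 libraries and are not replicates.

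No low-coverage gene passed the test for a difference between times. Limma, fitted to all 38703 genes on the log2(scaled coverage + 73) scale, called 0 low-coverage genes and 0% of all genes at a Benjamini-Hochberg adjusted p under 0.05 in each of the 3 comparisons. At an unadjusted p under 0.05, 62 were higher and 39 lower at 6 h against 0 h (2.75% and 1.73%), where 3.11% and 3.22% of all genes were. For 12 h against 0 h, 57 were higher and 33 lower (2.53% and 1.46%), where 2.9% and 2.48% of all genes were. For 12 h against 6 h, 52 were higher and 63 lower (2.30% and 2.79%), where 3.49% and 3.24% of all genes were. These shares do not exceed those over all genes, in either direction. The median standard error of a log2 change was 0.55 in low-coverage genes and 0.32 over all genes, on the log2(scaled coverage + 73) scale. On a square-root scale limma also called 0 of the low-coverage genes in each comparison. Their lowest limma adjusted p on that scale was 0.519 for 6 h against 0 h, 0.772 for 12 h against 0 h and 0.330 for 12 h against 6 h.

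The genes whose libraries did not overlap between times were a small set whose size moved with the scaling. For 12 h against 0 h, 122 low-coverage genes were higher in every 12 h library and 74 lower, or 5.41% and 3.28%, where 5.94% and 5.28% of all genes were. In the unscaled coverage 83 were higher and 65 lower without overlap, where 4.66% and 6.14% of all genes were, and 80 and 63 of these were so on both scales. For 6 h against 0 h, 143 were higher and 60 lower, or 6.34% and 2.66%, where 5.72% and 5.26% of all genes were, and on the unscaled scale they numbered 45 and 91, where 1.4% and 15.5% of all genes were. For 12 h against 6 h, 84 were higher and 134 lower, or 3.72% and 5.94%, where 5.58% and 5.62% of all genes were, and on the unscaled scale they numbered 112 and 47, where 13.7% and 1.53% of all genes were. Unscaled coverage favours the deeper libraries and scaled coverage gives single reads of the shallow ones more weight, so the excess of higher genes at 6 h was not shown apart from depth.

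The genes of lowest p show how few reads a difference rested on. Zm00001d022281 had a scaled coverage of 208, 192 and 142 in the 12 h libraries and is listed at 0 in all 3 at 0 h and all 3 at 6 h. It was thus covered at 12 h alone, by about 3 reads or fewer in each library. It averaged 181 ± 34.3 (SD, n = 3) at 12 h, with a fitted log2 change of 1.79 (SE 0.54) over 0 h and a limma adjusted p of 0.867. With a pseudocount of 1 the same change was 7.49, so it is no measure of a fold. In the other direction at 12 h, Zm00001d009790 had a scaled coverage of 69.3, 0 and 0 in the 12 h libraries, against 130.3, 218 and 268 at 0 h. Every 12 h library lay below every 0 h one, and at 6 h the gene had 82.05, 308 and 88.1. The fit put its log2 change at -1.58 (SE 0.55) between 12 h and 0 h, at an adjusted p of 0.925.

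At 6 h, Zm00001d052071 had a scaled coverage of 412, 231 and 176, against 65.1, 0 and 0 at 0 h. At 12 h it had 277, 281 and 71.1, so that neither later time overlapped with 0 h, although the lowest 12 h library and the highest 0 h library each held 73 read bases before scaling. Limma gave a log2 change of 1.88 (SE 0.55) for 6 h over 0 h and an adjusted p of 0.613. Zm00001d021540 had a scaled coverage of 0, 76.9 and 0 at 6 h, against 261, 218 and 201 at 0 h, and 69.3, 211 and 142 at 12 h. Its 6 h libraries all lay below its 0 h ones. Limma gave it -1.69 (SE 0.54) for 6 h over 0 h and an adjusted p of 0.648. Among the 5 low-coverage genes of lowest p in each direction for 12 h against 6 h, log2 changes ran from 1.64 to 2.13 and from -1.97 to -1.66, with limma adjusted p of 0.454 to 0.556 and 0.534 to 0.548.

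Low-coverage genes lay next to each other in the list more often than their overall share. The next listed gene was a low-coverage gene in 445 of 2256 cases (19.7%, 95% Wilson interval 18.1% to 21.4%), where 5.83% of all genes were. At 2 places down the share was 12.3%, at 5 places 8.70% and at 10 places 6.55%, and at 20 places it was 5.86%. Where the next identifier was numbered 1 higher the share was 20.7%, where it was 2 to 5 higher it was 16.7%, and where it was over 5 higher it was 26.1%, or 6 of 23. The shares among all next genes at these distances were 5.48%, 6.88% and 10.7%. Of the genes with a mean of 200 to 300, 7.17% were followed by a gene of their own kind, where 4.87% of all genes were of that kind. Of the genes at 2000 or more, 12.0% were, where 4.41% of all genes were. Whether windows of neighbouring genes overlap and so share reads was not tested; of the 445 neighbouring pairs, 11 had the same value in all 9 libraries.

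**Figure D5:**
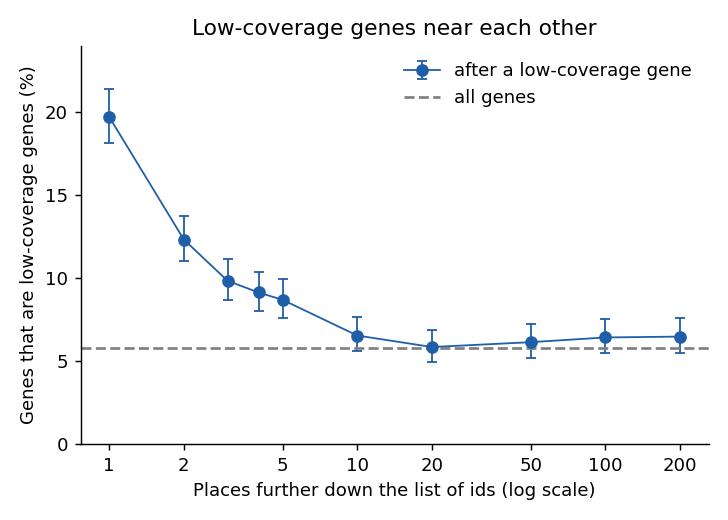
Percent of genes that are low-coverage genes (y axis) at 1 to 200 places down the list from a low-coverage gene (x axis, log scale), with 95% Wilson intervals that cover counting error only. The dashed line is their share among all genes, 5.83%; the share is 19.7% at 1 place and lies near the line from 20 places on.

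In all, 752 low-coverage genes (33.3%) stood in 307 runs of 2 or more, and 1504 stood alone. There were 26 runs of 4 or more, with 129 genes. The longest were 2 runs of 7. The run from Zm00001d012342 to Zm00001d012348 has 7 consecutive numbers, and 29 of its 63 values were 0. Its 7 genes summed to 709, 220 and 186 read bases at 0 h, 607, 608 and 440 at 6 h, and 262, 472 and 421 at 12 h, and the 3 times overlapped. The run from Zm00001d012942 to Zm00001d012952 had 16 zeros in 63 values. It summed to 657, 276 and 987 at 0 h, 730, 657 and 657 at 6 h, and 662, 1314 and 1358 at 12 h, again with overlap between the times. Genes beside a low-coverage gene but above the cutoff, 3482 in number, had a median coverage of 734, against 853 for the remaining genes.

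Low-coverage genes were found all along the identifier numbers, with some places denser than others. In the 10 long stretches they made up between 5.25% and 6.85% of the genes. Among the 298 identifiers at the head of the list it was 35 genes, or 11.7% (95% Wilson interval 8.57% to 15.9%). Each stretch was cut by listed order into 10 equal parts, and over the stretches low-coverage genes were most frequent in part 5, at 7.60%, and least in part 8, at 4.79%. The median coverage of all genes was 681 in part 5 and 925 in part 10. In 52 blocks of 1000 numbers with at least 400 listed genes, the share ran from 3.11% (numbers 39000 to 39999) to 10.96% (4000 to 4999), with a median of 5.82%. Which chromosomes these numbers stand for was not looked up in an annotation.

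Low-coverage genes also made up most of the genes that could not be told from another. Of 165 genes in the table with the same 9 values as another gene, 133 were low-coverage genes, which is 5.90% of them against 0.0878% of the others. Of the 133, 69 were covered in 1 library alone. A low mean leaves few possible values, so such ties go with the rule that chose the genes and are no separate finding.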

How the data were processed

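ATAC-seq libraries of 9 samples, 3 at each of 0 h, 6 h and 12 h, were grouped by the labels. The deposited table holds coverage, a signal in whole read bases per gene that was not scaled to a common total, with 0 columns of no sample. Cutadapt 1.11, Bowtie2 2.2.6, MACS2 and DESeq2 are named in the submitters' processing notes, with no role or order. The sources used here do not give the genome build, window, read shift or duplicate handling. Wide windows and duplicates would add reads that are not independent.

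Each library was divided by its total and multiplied by the mean total. Totals of 28.9 to 39.1 megabases equal 396306 to 536001 reads of 73 bases. The test was limma 3.58.1 (R 4.3.3) over the 9 libraries on log2(value + 73), with trended, robust moderation. No gene was filtered out, and Benjamini-Hochberg adjustment covered 38703 genes with a threshold of 0.05, two-sided. A pseudocount of 73 was used because 1 would make 0 against 1 read a change of about 6 log2 units. The fit was tested on simulated data. The simulation drew whole reads with counting error only and was checked over all genes. It therefore does not show how often a change in a low-coverage gene would be called. How separately the replicates were grown is not stated, so p-values may reflect technical spread alone.

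Genes were named as the lowest p in each direction, the lowest means, the nearest to the cutoff and the longest runs. The genes and tests were chosen with earlier results of these data known. Coverage bands and unscaled comparisons were added after seeing the data. Lists by annotated product and promoter composition were not used here, as 0 identifiers matched.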

Additional observations from a re-analysis of the deposited data

How the results depend on the processing

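The count of low-coverage genes that limma called was 0 under all 19 alternatives in each comparison (pseudocounts of 1 and of 2 reads, TMM and median-of-ratios scaling, a minimum mean of 73, the square-root scale, the replicate block, each library left out and other cutoffs). The other cutoffs could not change this count, since the main fit called 0 of all 38703 genes. The lowest limma adjusted p over the 19 alternatives was 0.386 for 6 h against 0 h, 0.766 for 12 h against 0 h and 0.330 for 12 h against 6 h. Same-numbered libraries did not deviate together (correlations -0.018 to 0.0094 over 9 pairs, 0 of 9 libraries closest to their own number), so the numbers were not taken as pairs; the replicate block gave counts of 0, 0 and 0.

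The higher share was 8.30% (6 h) and 6.83% (12 h) over 0 h with TMM and 8.91% and 7.02% with median of ratios. With each library left out in turn it ran from 7.04% to 12.6% for 6 h and from 5.80% to 10.1% for 12 h against 0 h, and from -4.22% to 0.774% for 12 h against 6 h. Under a mean of 150 the gain was 6.01% at 6 h and 4.75% at 12 h. Without the 100 largest positive differences the values were 2.00%, 0.80% and -7.88%, by construction lower, since they were taken from 1 end. Genes with a higher mean were 52.5%, 55.5% and 48.4% in the 3 comparisons. Leaving out each library they were 49.4% to 54.2%, 50.7% to 55.9% and 47.3% to 51.6%, and a mean of 2 libraries is then set against a mean of 3. For 6 h against 0 h they were 49.97% under a mean of 150 and 54.6% in the lowest 10% of genes. The next listed gene was also low in 17.9% of cases without genes of identical values and in 22.0% for the lowest 10%. The depth of about 2 reads a gene limits every single-gene value.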
